A study of Rattus norvegicus with 4 samples.

Results

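Barcodes of the deposited matrix of rat hippocampal cells end in 1 of 4 suffixes, and the cells described here are those of barcode set 1 and barcode set 2, the barcodes ending in 1 and in 2. Cells were kept with at least 500 UMIs (unique molecular identifiers, each standing for 1 captured transcript), at least 300 genes and at most 20% of UMIs from mitochondrial genes. This left 6554 cells of 7291 barcodes in set 1 and 8250 of 8959 in set 2, together 14804 of the 28879 kept cells of all 4 sets. Each set was treated as 1 library, and no label or file ties a suffix to a titled sample, so a difference between set 1 and set 2 cannot be given the name of a treatment.

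The animals were male adult Sprague Dawley rats of 10 to 12 months, labelled wild type. In the design text, 2 groups of 10 rats all had a filament placed in a middle cerebral artery (MCAO, a model of stroke), 1 group was then stressed chronically to model depression, and 5 hippocampi per group were sequenced. The 4 sample titles are NC, described as the negative control, MCAO, and DEPR and MD, both described by the chronic stress; whether animals were pooled in a library is not given in the sources used here. With 1 library per set there is no replicate spread. Intervals are exact 95% intervals that cover counting error only, and no test between sets was made.

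Microglia are the resident macrophages of the brain and turn on inflammatory, interferon and phagocytic genes after injury. Endothelial cells line the vessels and, with their tight junctions and transporters, form the blood-brain barrier. Oligodendrocytes make myelin, the lipid-rich sheath around axons. Classes were set by counts of a few defining genes. A microglial cell had at least 5 UMIs of the complement genes C1qa, C1qb and C1qc together. An endothelial cell had at least 3 of Cldn5, a tight junction protein, and at least 1 of Flt1, a VEGF receptor. An oligodendrocyte had at least 8 of the myelin genes Mag, Mog, Mobp and Ermn together. Cells that met several of these rules were left out of the classes (310 in set 1, 453 in set 2). Markers that the rules did not use fitted the names: 9 of 9 microglial, 9 of 9 endothelial and 11 of 11 oligodendrocyte markers were higher inside their class than in all other kept cells, in both sets. Csf1r, the receptor for the growth factor that microglia need, stood at 858 and 743 CPM (UMIs of a gene per 1000000 UMIs of the class) in the microglia of sets 1 and 2. Its level in the other kept cells was 33.0 and 40.9 CPM.

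Set 1 held a larger share of endothelial cells and smaller shares of microglia and oligodendrocytes than set 2. Endothelial cells made up 16.3% (15.4 to 17.2) of the kept cells of set 1, 1067 cells, and 4.68% (4.23 to 5.16) of set 2, 386 cells. The ratio of these shares was 3.48 (3.09 to 3.92), and sets 3 and 4 stood between them at 11.9% and 11.7%. Microglia made up 46.0% (44.8 to 47.3) of set 1 (3018 cells) and 53.2% (52.1 to 54.3) of set 2 (4390 cells), against 35.5% and 41.3% in sets 3 and 4. Oligodendrocytes made up 18.1% (17.1 to 19.0) of set 1 (1183 cells) and 26.3% (25.3 to 27.2) of set 2 (2167 cells), against 34.4% and 26.4% in sets 3 and 4. Set 2 was thus the lowest of the 4 in endothelial cells and the highest in microglia, and set 1 was the lowest in oligodendrocytes.

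**Figure D1:**
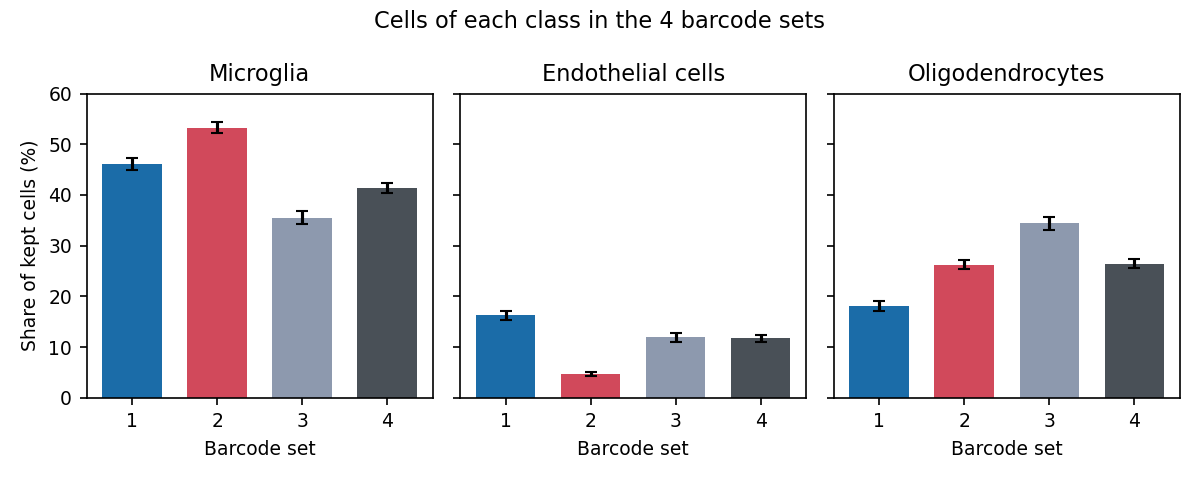
Share of kept cells (y axis, %) in each class for barcode sets 1 to 4 (x axis), 1 library each; error bars are exact Clopper-Pearson 95% intervals for counting error. The endothelial bar is lowest in set 2 at 4.68% and highest in set 1 at 16.3%.

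Shares of 1 total move against each other. With endothelial cells left out of the total, a denominator chosen after the values were seen, microglia were 55.0% (53.7 to 56.3) of set 1 and 55.8% (54.7 to 56.9) of set 2, with intervals that overlap. Oligodendrocytes remained apart on that denominator, at 21.6% (20.5 to 22.7) in set 1 and 27.6% (26.6 to 28.6) in set 2. Markers of other vascular cells were higher in set 1 as well. Over all kept cells, the summed level of 6 pericyte markers was 215 CPM in set 1 and 73.0 in set 2, with all 6 at least 2-fold higher in set 1. For 5 smooth muscle markers it was 583 and 291 CPM, with 2 of the 5 at least 2-fold higher in set 1. Neutrophil markers went the other way, 331 against 757 CPM, with 4 of 5 measured markers at least 2-fold higher in set 2. How far dissociation or cell recovery set these shares was not tested.

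Within a class, few genes were apart. Counts were summed over the cells of a class, divided by the class total and compared for genes with at least 100 UMIs over both sets, leaving out the genes of the class rules. In microglia, 75 of 8956 measured genes (0.837%) were at least 2-fold higher in set 1 and 58 (0.648%) in set 2. In endothelial cells it was 56 of 7017 (0.798%) in set 1 and 9 (0.128%) in set 2. In oligodendrocytes it was 34 of 7880 (0.431%) in set 1 and 41 (0.52%) in set 2. The median log2 ratio of set 1 to set 2 over all measured genes was 0.01, 0.11 and -0.01 in microglia, endothelial cells and oligodendrocytes. For scale, on the same rule 1.49% of microglial genes were 2-fold apart between sets 1 and 2 and 0.587% between sets 3 and 4. Sets 1 and 2 were farther from sets 3 and 4, with 8% (1 and 3), 9.23% (1 and 4), 7.89% (2 and 3) and 9.04% (2 and 4) of genes apart. In endothelial cells it was 0.926% between sets 1 and 2 and 0.364% between sets 3 and 4, and 8.81%, 9.77%, 12.4% and 14.8% for the other pairs in the same order. In oligodendrocytes it was 0.952% and 0.566%, and 3.22%, 3.68%, 4.18% and 3.77% for the other pairs.

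Many of the genes that were apart had their UMIs in a handful of cells. In microglia, 31 of the 75 genes higher in set 1 had over 50% of their set 1 UMIs in 10 cells (41.3%), against 3.14% of all measured genes in the set where each was higher. For the 58 higher in set 2 it was 8 genes. In endothelial cells it was 18 of 56 and 4 of 9, against 2.02% of all. In oligodendrocytes it was 20 of 34 and 13 of 41, against 0.761%. A second kind was genes with only a clone or locus name, which made up 42 of the 58 genes higher in set 2 in microglia (72.4%) but 7 of the 75 higher in set 1, and 6.61% of all measured genes. Genes of that kind are not named below.

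**Figure D2:**
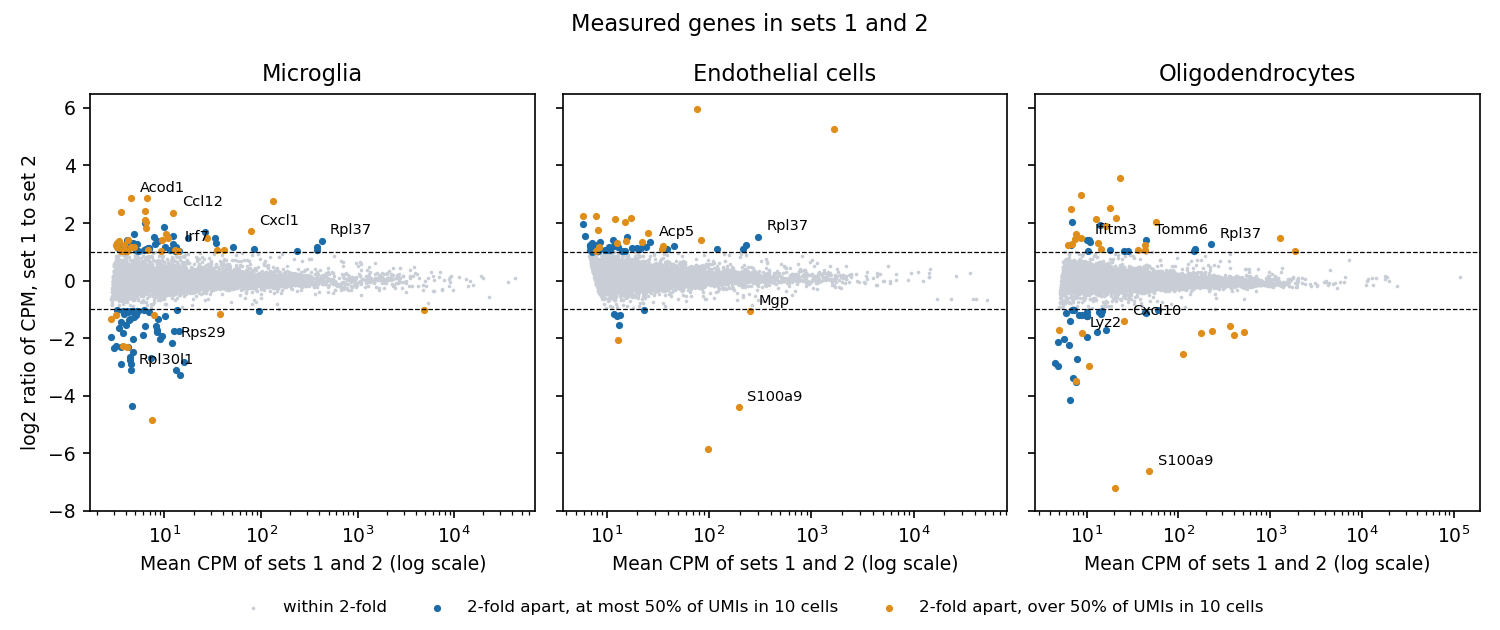
Log2 ratio of CPM in set 1 to set 2 (y axis) against the mean CPM of the sets (x axis, log scale) for each measured gene of a class with UMIs in both sets; dashed lines mark 2-fold. Orange points, 2-fold apart with over 50% of the higher set's UMIs in 10 cells, include S100a9 in endothelial cells and oligodendrocytes, while Rpl37, at log2 1.26 to 1.52 in the 3 classes, is among the blue points spread over more cells.

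Of 5753 genes measured in all 3 classes, 9 (0.156%) were at least 2-fold higher in set 1 in each class and 2 (0.0348%) in set 2, both of the latter with locus or clone names. The 10 genes named in each direction were chosen by the interval bound in the class where it was nearest 0, and some were less than 2-fold apart in a class. Rpl37, a protein of the large ribosomal subunit, led the genes higher in set 1. Its level in microglia was 613, 233, 509 and 319 CPM in sets 1 to 4, in endothelial cells 448, 156, 483 and 311 CPM in sets 1 to 4 and in oligodendrocytes 320.2, 134, 317 and 201 CPM in sets 1 to 4. Set 2 was the lowest of the 4 sets in each class, and the log2 ratios of set 1 to set 2 were 1.39 (1.34 to 1.45), 1.52 (1.38 to 1.67) and 1.26 (1.17 to 1.35). In microglia, 10 cells held 2.18% of its set 1 UMIs. Tomm6, part of the channel that imports proteins into mitochondria, stood at 65.1, 24.5, 79.5 and 36.0 CPM in sets 1 to 4 in oligodendrocytes. There its log2 ratio was 1.41 (1.20 to 1.63), and it was 1.54 in microglia and 1.51 in endothelial cells.

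The other genes named for all classes had log2 ratios from 0.80 to 2.98. They were Zbed5, the ribonuclease Rnasek, Ppia (cyclophilin A, a protein-folding enzyme), Crispld2, Rps25 and Rps10 of the small ribosomal subunit, Aprt (a purine salvage enzyme) and Smdt1, a subunit of the mitochondrial calcium uniporter. Ppia stood at 314, 152, 403 and 259 CPM in sets 1 to 4 in microglia, with set 2 lowest and set 3 highest. Aprt stood at 70.3, 31.5, 58.3 and 38.0 CPM in sets 1 to 4 there, with set 1 highest and set 2 lowest. Across these 10 genes and 3 classes, 29 of 30 values were also higher in set 3 than in set 4. For the 10 genes named as higher in set 2, 8 of 30 values were. The 30 values are not independent, because the 3 classes come from the same libraries. Crispld2 differed from the rest in its spread: 10 cells held 85.4% of its set 1 UMIs in microglia and 91.1% in oligodendrocytes. In endothelial cells its ratio of 1.38 went to 0.25 when cells that met several class rules were kept. Ribosomal genes have near-identical copies in the genome between which reads can be divided, so the levels of Rpl37, Rps25 and Rps10 are uncertain.

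**Figure D3:**
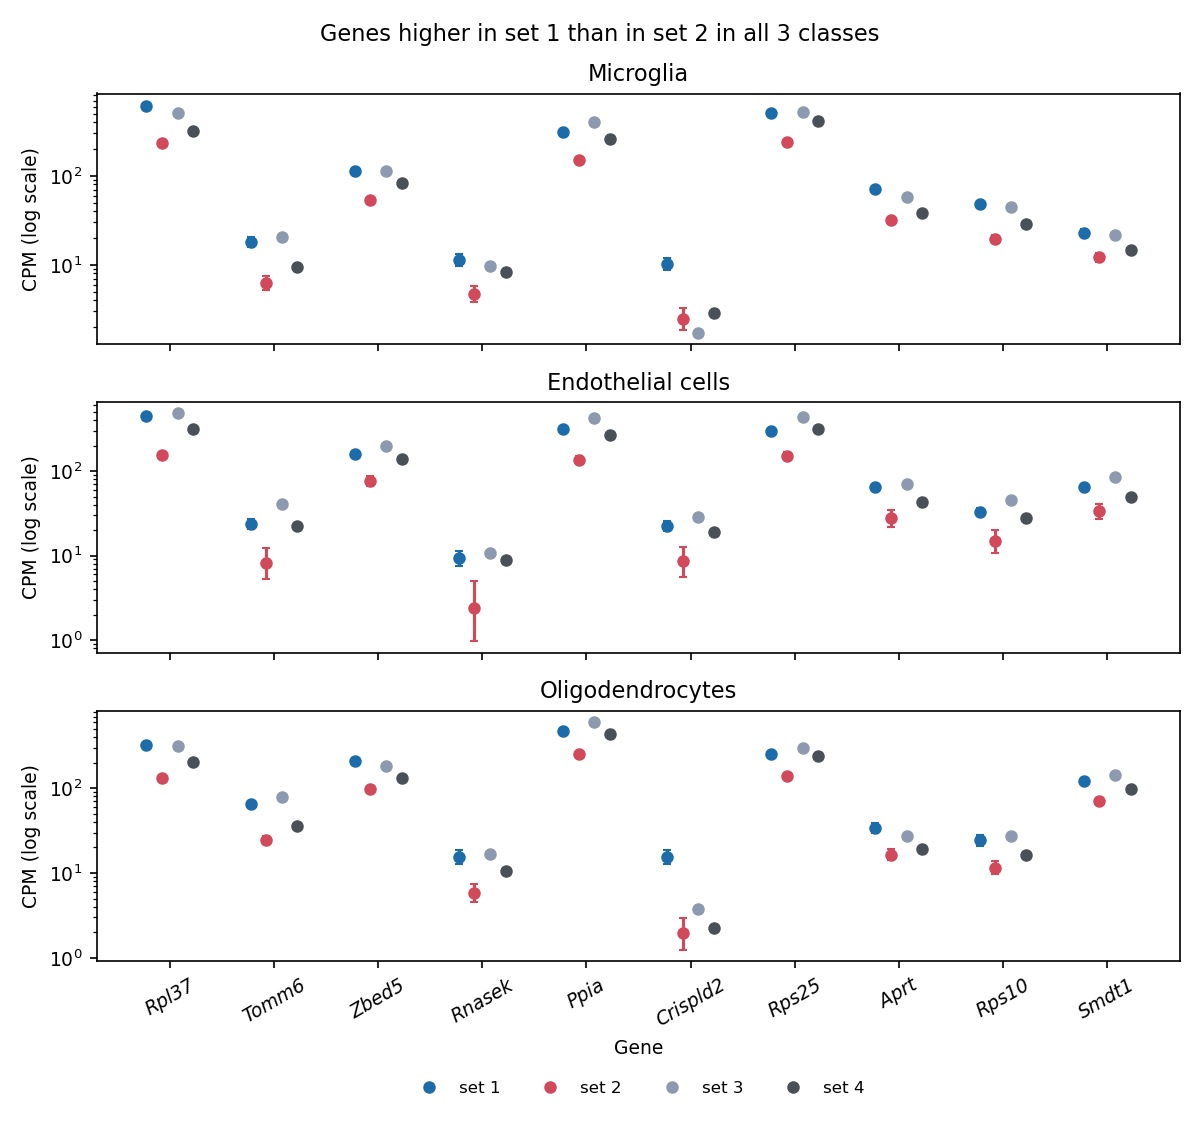
CPM (y axis, log scale) of the 10 genes named as higher in set 1 in all classes (x axis) in sets 1 to 4; error bars on sets 1 and 2 are exact Poisson 95% intervals. Set 2 lies below set 1 for each gene in each class, as for Rpl37 in microglia at 233 against 613 CPM.

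First among those named for set 2 were S100a9 and S100a8, calcium-binding proteins that neutrophils hold in large amounts. S100a9 stood at 102, 202, 2.56 and 3.84 CPM in sets 1 to 4 in microglia, 17.6, 373, 5.53 and 6.18 CPM in sets 1 to 4 in endothelial cells and 0.969, 95.7, 1.11 and 0.519 CPM in sets 1 to 4 in oligodendrocytes. Set 2 was highest in each class. The log2 ratios of S100a9 were -0.98, -4.41 and -6.63, and those of S100a8 -0.74, -5.84 and -7.20, so that neither was 2-fold apart in microglia. In oligodendrocytes they went to -0.38 and -0.92 when cells that met several class rules were kept, which ends both calls. In microglia S100a9 turned to 0.71 with doubled marker minimums and to 2.37 with cells thinned to 1000 UMIs. These UMIs came from few cells. In set 2, 10 cells held 97.1% of them in microglia, 100.0% in endothelial cells and 95.1% in oligodendrocytes, and 1726 of the 4076 microglial UMIs came from 1 cell. Counting intervals, which assume independent UMIs, are too narrow for such genes. The 7 neutrophil markers summed to 1.66 and 139 CPM in the oligodendrocytes of sets 1 and 2, where S100a8 and S100a9 alone had 100 UMIs and Ngp was at 0 in both. What part such cells, or captures of 2 cells in 1 droplet, have in the result was not tested.

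The other genes named as higher in set 2 in all classes were less than 2-fold apart in each. Rgs1, a brake on chemokine receptor signalling, had log2 ratios of -0.33, -0.84 and -0.87 in microglia, endothelial cells and oligodendrocytes. For RT1-A2, an MHC class I gene, they were -0.27, -0.35 and -0.58. The chemokine Ccl3 was at 8305, 9517, 8315 and 8368 CPM in sets 1 to 4 in microglia, a level close across the sets, and at 82.2, 154, 77.6 and 97.9 CPM in sets 1 to 4 in oligodendrocytes, where it was highest in set 2. The oligodendrocyte genes Ptgds, a prostaglandin D synthase, and Cryab, a small heat shock protein, were -0.19 and -0.20 in oligodendrocytes and -0.45 and -0.65 in microglia. Ftl1, the ferritin light chain, was between -0.27 and -0.19. The ribosomal genes Rps4x-ps9 and Rpl36a, which may share reads with copies, completed the 10 at -0.85 to -0.51.

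In microglia, 3951 measured genes stood, in the set where they were higher, at or above their level in all other kept cells of that set. Of these, 22 (0.557%) were at least 2-fold higher in set 1 and 41 (1.04%) in set 2. The one most apart by the bound of its interval was Rhox5, a homeobox gene of the X chromosome known from the testis and epididymis. Its 103 UMIs in set 1 came from 83 of 3018 cells, or 2.75% (2.20 to 3.40), and the microglia of sets 2, 3 and 4 had none. A count of 0 in 4390 cells allows a share of cells with a UMI of up to 0.0683%. In the other kept cells, Rhox5 had 23, 4, 0 and 17 UMIs in sets 1 to 4, from 16, 4, 0 and 2 cells, so that 0.452% of the other cells of set 1 had a UMI. No other measured gene was at 0 in the microglia of 1 of the 2 sets.

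Genes of macrophage activation came next, and most of their UMIs lay in few cells. Acod1, the enzyme that makes itaconate in activated macrophages, stood at 7.99, 1.09, 0 and 0.0492 CPM in sets 1 to 4, highest in set 1. Its log2 ratio was 2.87 (2.20 to 3.60), and 10 of the 18 set 1 cells with a UMI held 92.0% of them. The neutrophil attractant Cxcl1 stood at 119.6, 36.2, 102 and 153 CPM in sets 1 to 4, lowest in set 2, with a log2 ratio of 1.72 (1.60 to 1.85). The chemokine Ccl12 stood at 20.7, 4.02, 36.9 and 39.3 CPM in sets 1 to 4, again lowest in set 2, with a ratio of 2.36. In set 1, 10 cells held 62.5% of Cxcl1 and 95.9% of Ccl12. Cxcl1 and Ccl12 were higher in cells with a larger mitochondrial share. In the 394 set 1 microglia with over 10% mitochondrial UMIs, Cxcl1 was at 1019.8 CPM, against 155 CPM in the 438 of set 2. Among microglia with up to 10% it was 21.1 CPM in set 1 and 28.0 CPM in set 2, so the direction changed. Acod1 did not follow in set 1. Among microglia with up to 10% it was 8.23 CPM in set 1 and 0.902 CPM in set 2, and above that 5.79 and 3.84 CPM. The values above 10% rest on 8 UMIs from 2 cells in set 1 and 5 UMIs from 4 cells in set 2. With cells filtered at 10% mitochondrial UMIs, 1000 UMIs and 500 genes, the log2 ratios turned to -0.40 for Cxcl1 and -0.39 for Ccl12.

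Cxcl3, a related chemokine, was at 9.99 and 2.83 CPM in sets 1 and 2 (log2 1.82), with 79.3% of the set 1 UMIs in 10 cells. Cfd, complement factor D, was at 49.0, 17.5, 35.3 and 81.7 CPM in sets 1 to 4, with set 2 the lowest, and had a ratio of 1.48 (1.30 to 1.67). Of the 94 set 1 cells with a UMI of Cfd, 10 held 47.2% of them. Mrc1, the mannose receptor that marks macrophages at the brain's borders, was at 10.1, 2.53, 11.2 and 36.0 CPM in sets 1 to 4, lowest in set 2, from 44 cells in set 1 and 28 in set 2. The 5 border macrophage markers summed to 41.7, 18.5, 86.3 and 177 CPM in the microglia of sets 1 to 4. Their part in these results was not tested.

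Of the 10 genes named as higher in set 2 in microglia, 7 are ribosomal by name. The list of cytosolic ribosomal proteins as a whole leaned the other way. Of its 76 measured members, 64 lay above 0, and the median log2 ratio was 0.10 against 0.01 for all measured genes. In that list 3 members were at least 2-fold higher in set 1 and 4 in set 2. Rpl30l1, a gene named for its likeness to Rpl30, stood at 0.927, 7.99, 0.661 and 0.787 CPM in sets 1 to 4, with set 2 alone high, and a log2 ratio of -3.11 (-4.05 to -2.29). Its set 2 UMIs came from 156 cells with at most 3 in any of them. Rps29 stood at 4.35, 19.6, 8.26 and 7.04 CPM in sets 1 to 4, again with set 2 alone high, and a ratio of -2.17 (-2.58 to -1.78). For Rplp2, Rps18l1, Rps4x-ps9, Rpl9 and Rpl36a the ratios ran from -1.77 to -0.60. Families with near-identical copies make the levels of all 7 uncertain. Hspb1, a small heat shock protein, was at 885, 1258, 4284 and 4424 CPM in sets 1 to 4. It was higher in set 2 than in set 1 by a log2 ratio of -0.51, and both were far below sets 3 and 4. Ccdc152 was at 2.07 and 5.95 CPM in sets 1 and 2, a ratio of -1.53 (-2.16 to -0.93).

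Interferon-induced genes lay above 0, mostly by less than 2-fold, in microglia and endothelial cells. Interferons act through Stat2 and factors of the Irf family to switch on antiviral genes such as Mx1 and the Oas and Ifit families. Of 21 such genes, 20 were measured in microglia; 19 had a ratio above 0, 1 was at least 2-fold higher in set 1 and none in set 2. Their median log2 ratio was 0.35, against 0.01 for all measured genes. In endothelial cells 20 of 21 lay above 0 with a median of 0.39 against 0.11, and none passed 2-fold. In oligodendrocytes 8 of 11 measured members lay above 0 with a median of 0.15 against -0.01, and 1 was at least 2-fold higher in set 1. Between sets 3 and 4, the median log2 ratio of the same members was -0.04, -0.01 and -0.11 in the 3 classes. In the kept cells outside microglia, endothelial cells and oligodendrocytes, their median ratio of set 1 to set 2 was 1.01, 0.47 and 0.49. The median was thus larger outside each class than inside it. What part RNA from other cells has in the class values was not tested.

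Irf7, the factor that amplifies the interferon response, was at 18.2, 8.14, 1.49 and 1.23 CPM in sets 1 to 4 in microglia and 113, 79.5, 36.8 and 32.6 CPM in sets 1 to 4 in endothelial cells. Set 1 exceeded set 2 in both, with log2 ratios of 1.16 (0.87 to 1.45) and 0.51 (0.31 to 0.72), and its set 1 UMIs in microglia came from 204 cells. Mx1, a GTPase that blocks viruses, was at 71.8, 39.0, 15.1 and 17.8 CPM in sets 1 to 4 in microglia, with a ratio of 0.88 (0.74 to 1.01). In endothelial cells it was at 25.2, 12.7, 6.45 and 5.70 CPM in sets 1 to 4, with a ratio of 0.99 (0.48 to 1.53). Ifitm3, a membrane protein that hinders viral entry, had ratios of 0.50, 0.10 and 1.41 (0.95 to 1.88) in microglia, endothelial cells and oligodendrocytes. In oligodendrocytes 47.6% of its 105 set 1 UMIs came from 10 cells. Members near 0 were Rsad2 (viperin) at -0.09 and Stat2 at 0.04 in microglia, and Ifit1 at -0.06 in endothelial cells.

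**Figure D4:**
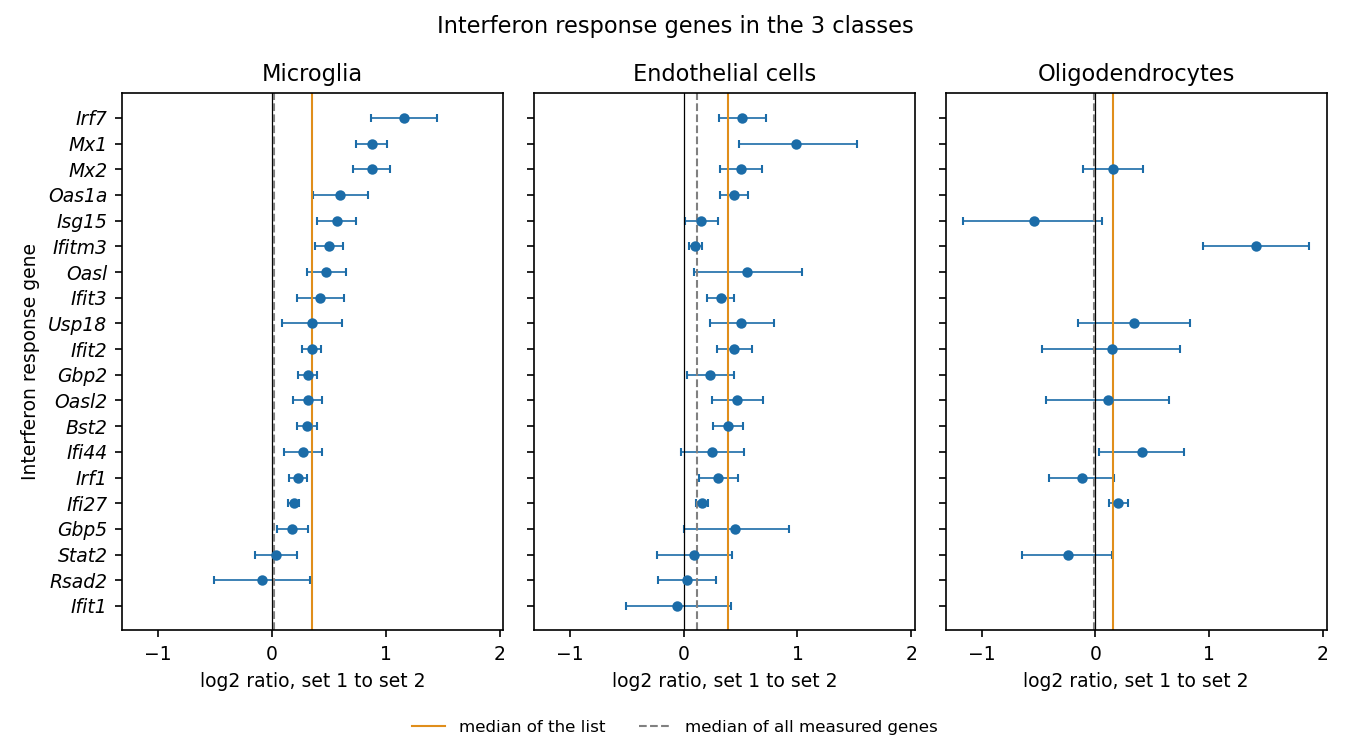
Log2 ratio of set 1 to set 2 (x axis) for the measured interferon response genes shown (y axis) in each class, with the median of the whole list as a line; error bars are exact conditional 95% intervals for counting error. Irf7 lies farthest to the right in microglia at 1.16, followed by Mx1 and Mx2 at 0.88 each, and the list medians are 0.35, 0.39 and 0.15.

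The promoters of these genes are shown because nearly all members lay on one side of 0 in microglia and endothelial cells. Such genes are also known to share a promoter element. The interferon-stimulated response element is bound by complexes that hold Stat2 and Irf9, and by other Irf factors. Its core was searched as GAAA, any 2 bases and GAAA, on both strands (TTTC, any 2 bases and TTTC on the other), in the 250 bases before the start site of the RefSeq gene, on build GRCr8. A promoter was at hand for 15 of the 21 list members, and 11 of them held a match (73.3%), against 1140 of 33469 promoters overall (3.41%). The list was made of genes known to respond to interferon, so its share of matches does not bear on set 1 against set 2. A match is a description of the letters, not a bound site. The stretches below run 5′ to 3′ on the gene's own strand, with the match nearest the start site in capitals.
Irf7: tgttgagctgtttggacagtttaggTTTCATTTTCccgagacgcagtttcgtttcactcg
Oas1a: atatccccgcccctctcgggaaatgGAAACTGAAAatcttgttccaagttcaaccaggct
Ifit3: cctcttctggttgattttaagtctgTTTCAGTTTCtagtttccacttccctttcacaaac
Bst2: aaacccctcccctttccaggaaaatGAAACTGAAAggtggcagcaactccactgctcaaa
They lie at chr1:205800058-205800117, minus strand (Irf7), chr12:41330406-41330465, plus strand (Oas1a, which makes the messenger that activates RNase L), chr1:241527257-241527316, plus strand (Ifit3) and chr16:18255058-18255117, minus strand (Bst2, tetherin, which holds virus particles at the cell surface). The matches begin 69, 35, 44 and 125 bases before the start site. In microglia the log2 ratios of Oas1a, Ifit3 and Bst2 were 0.60, 0.42 and 0.31, and in endothelial cells 0.44, 0.32 and 0.39. Mx1, among the members most apart, held no match in this window.

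Most other programmes of microglia were close between the sets. The list median farthest above 0 was that of venous endothelial genes, at 0.58 over 4 measured members, all above 0. Its 1 member past 2-fold was Vwf, at 1.31. Barrier transporters had a median of 0.19 with 9 of 10 above 0, and barrier junction genes -0.06 with 1 of 6 above 0. What part RNA of vascular cells has in these values was not tested. Homeostatic genes had a median log2 ratio of -0.09 over 11 members, none of them 2-fold apart, from Cx3cr1, the fractalkine receptor, at -0.27 to Csf1r at 0.21. Genes of disease-associated microglia had a median of 0.05 over 17. Trem2, a lipid receptor, was at -0.12, Spp1 (osteopontin) at -0.37 and the receptor kinase Axl at 0.39. Itgax, the integrin CD11c, was the 1 member past 2-fold, at 6.78, 2.73, 2.73 and 2.07 CPM in sets 1 to 4 and a ratio of 1.31 (0.82 to 1.82). Cytokines and chemokines had a median of 0.01 over 14. Il1b was at 0.03, Ccl2 at 0.00 and Cxcl10 at -0.05, with Ccl7 at 1.07 and Cxcl1 as the 2 past 2-fold. Ccl7 went to 0.30 with the stricter cell filter, and in microglia with up to 10% mitochondrial UMIs it was 21.4 CPM in set 1 and 17.6 CPM in set 2. In set 1, 10 cells held 50.8% of its UMIs. Immediate early genes, which switch on within minutes of a stimulus, lay below 0 in 15 of 16 members with a median of -0.22. Fos was at 6714, 8346, 5456 and 6312 CPM in sets 1 to 4 and Junb at 5397, 6858, 5342 and 6445 CPM in sets 1 to 4, with log2 ratios of -0.31 and -0.35; both were higher in set 2 than in set 1. Between sets 3 and 4 the median of the immediate early genes was -0.21 in microglia and -0.75 in oligodendrocytes, beside -0.16 between sets 1 and 2 there. Glucocorticoid-induced genes had a median of -0.18 over 14, with the clock gene Per1 at -0.37, Tsc22d3 (GILZ) at -0.33, Fkbp5 at -0.14 and the metallothionein Mt2A at 0.58, none 2-fold apart.

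The 13 genes of the mitochondrial genome were higher in set 1 in all 13 cases in microglia and endothelial cells, with medians of 0.31 and 0.40, and in 11 of 13 in oligodendrocytes, with 0.17. None was 2-fold apart. Between sets 3 and 4 the medians of this list were 0.41, 0.39 and 0.53 in microglia, endothelial cells and oligodendrocytes. Mt-atp8, a subunit of ATP synthase, was at 214, 113, 165 and 103 CPM in sets 1 to 4 in microglia and 346, 216, 376 and 205 CPM in sets 1 to 4 in oligodendrocytes, where sets 1 and 3 were high and sets 2 and 4 low. Its log2 ratios were 0.93 (0.85 to 1.01), 0.89 (0.75 to 1.03) and 0.68 (0.60 to 0.76) in microglia, endothelial cells and oligodendrocytes. Nuclear genes of the respiratory chain had medians of 0.09, 0.13 and -0.04. The mitochondrial share of UMIs was also part of the cell filter.

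Single members of other lists passed 2-fold in microglia. Ptgs2, the inducible cyclooxygenase, was at 26.1, 9.28, 5.45 and 10.6 CPM in sets 1 to 4, lower in set 2 than in set 1 with a ratio of 1.49 (1.23 to 1.75), while the other 9 NF-kB feedback genes stayed between -0.18 and 0.24. For Ptgs2, 10 cells held 45.9% of the set 1 UMIs. RT1-DMb, part of the machinery that loads MHC class II, was at 2.14 and 4.37 CPM in sets 1 and 2 with a ratio of -1.03 (-1.68 to -0.42). The class II chains RT1-Ba, RT1-Db1 and RT1-Bb were at 0.14, 0.15 and 0.93. Heat shock genes ran from Hspb1 at -0.51 through Hspa1b at -0.38 to Hspe1 at 0.34. The growth factor receptor gene Ntrk2 was at 1.06, and turned to -0.63 with the stricter cell filter; 10 cells held 91.5% of its set 1 UMIs.

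In endothelial cells, 3968 measured genes stood at or above their level in the other cells of the higher set, of which 21 (0.529%) were 2-fold higher in set 1 and 5 (0.126%) in set 2. Acp5, the tartrate-resistant acid phosphatase, stood at 38.2, 15.1, 1.61 and 2.69 CPM in sets 1 to 4. Both sets lay above sets 3 and 4, with set 1 highest, and the log2 ratio was 1.33 (0.88 to 1.82). Gdf15, a cytokine induced by cell stress, stood at 32.0, 13.8, 41.7 and 31.5 CPM in sets 1 to 4 with a ratio of 1.22 (0.74 to 1.73). The glycolytic enzyme Gapdh was at 268, 141, 148 and 105 CPM in sets 1 to 4 with a ratio of 0.92 (0.77 to 1.08), and at 0.82 (0.73 to 0.91) in microglia. Gapdh has many processed copies, so its level is uncertain. Gnas, the G protein subunit that raises cyclic AMP, and Vbp1, a subunit of the prefoldin chaperone, were at 0.87 and 0.89. Aprt, Zbed5, Mt-atp8 and Mt-nd3 were at 1.22, 1.08, 0.89 and 0.72. The interferon-induced chemokine Cxcl10 was at 31.7, 12.4, 69.1 and 157 CPM in sets 1 to 4, with a ratio of 1.36 (0.86 to 1.90) and 67.5% of the set 1 UMIs in 10 cells. Ccl2 was at 1.03 on 105 and 15 UMIs, and turned to -0.36 when cells that met several class rules were kept.

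Red cell genes were among the 10 named as higher in set 2. The haemoglobin genes Hba-a2, Hba-a3 and Hbb gave 8.89%, 13.9%, 1.02% and 1.45% of the endothelial UMIs of sets 1 to 4. Sets 1 and 2 were far above sets 3 and 4. Cells with at least 1% of their UMIs from these genes were 201 of 1067 in set 1, or 18.8% (16.5 to 21.3), and 97 of 386 in set 2, or 25.1% (20.9 to 29.8). They held 99.5% and 99.8% of the haemoglobin UMIs of the class. In microglia such cells were 22 of 3018 and 26 of 4390. Hbb had a log2 ratio of -0.62 in endothelial cells. Alas2, the enzyme that starts haem synthesis in red cell precursors, was at -0.54, and Lgals5, a galectin of rat red cells, at -0.69. Slc25a39, a mitochondrial glutathione carrier, Ifit1bl and Dcaf12 were at -0.58, -0.87 and -1.03, and Dcaf12 came as near to 0 as -0.45 over the alternatives.

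Leaving out the haemoglobin-rich cells, an alternative chosen after the values were seen, gave 33 genes at least 2-fold higher in set 1, of which 24 were among the 56, and 15 in set 2, of which 4 were among the 9. Of the 56, 16 no longer had 100 UMIs. The median log2 ratio over all measured genes went from 0.11 to -0.01. Acp5 was then at 1.78 and Irf7 at 0.54. Gdf15 went to 0.48 and Cxcl10 to 0.26. The interferon list kept a median of 0.30, and the mitochondrial genome went to 0.15.

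Of the vascular genes higher in set 2, Mgp (matrix Gla protein, an inhibitor of calcification found in arteries) stood at 163, 339, 382 and 372 CPM in sets 1 to 4. Set 1 was the lowest of the 4, and the log2 ratio was -1.06 (-1.17 to -0.94). Over the alternatives it ran from -2.68 to -0.80, was -1.43 without the haemoglobin-rich cells, and was under 2-fold with the stricter cell filter and with doubled marker minimums. In set 2, 10 cells held 72.6% of its UMIs. Other arterial genes followed to differing degrees: Sema3g, a guidance protein, was at -0.52, Gja4 (connexin 37) at -0.34, Efnb2 (ephrin B2) at 0.13 and Alpl at 0.15. Venous genes had a median of 0.04 over 6, with the adhesion protein Vcam1 at -0.34 and von Willebrand factor, Vwf, at 0.18. Pf4, the platelet chemokine, was at 188, 337, 35.5 and 25.7 CPM in sets 1 to 4, high in sets 1 and 2 and highest in set 2, with a ratio of -0.84 (-0.95 to -0.73). Of the other border macrophage markers that share a list with Pf4, Cd163 was at 0 in both sets.

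The barrier genes of endothelial cells were close. The 16 transporters had a median log2 ratio of 0.03, none 2-fold apart, and ran from Slc38a5 to Mfsd2a. The glucose transporter Slc2a1 was at 2249.9, 2164, 1674 and 1596 CPM in sets 1 to 4 with a ratio of 0.06. The drug pump Abcb1a was at 0.02, the lipid carrier Mfsd2a at 0.31, and the amino acid transporter Slc38a5 at -0.55, or -1.02 without haemoglobin-rich cells. The 9 junction genes had a median of 0.11, with Ocln (occludin) at -0.14 and Cdh5 (VE-cadherin) at 0.14. Genes of angiogenesis and VEGF signalling were above 0 in 13 of 14 with a median of 0.33, against 0.11 for all genes. Angpt2, a ligand that loosens vessel contacts, was at 609, 408, 21.0 and 21.5 CPM in sets 1 to 4, lower in set 2 than in set 1 with a ratio of 0.58 (0.49 to 0.67). The placental growth factor Pgf was at 0.93, the VEGF receptor Kdr at 0.50, the Notch ligand Dll4 at 0.59 and the tip cell peptide Apln at 0.63. Immediate early genes had a median of 0.06 and heat shock genes of -0.08.

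Oligodendrocytes had few differences in genes at their own level. At or above the level of all other cells of the set, 5 of 5918 measured genes (0.0845%) were 2-fold higher in set 1 and 4 (0.0676%) in set 2. Beside Tomm6, Zbed5, Rnasek, Ppia and Smdt1, the genes most apart in set 1 were Mrpl33 of the mitochondrial ribosome, Cox14, an assembly factor of cytochrome oxidase, the cell cycle kinase Cdk4, Cmc4 and Mt-atp8. Mrpl33 stood at 68.8, 34.8, 67.9 and 45.8 CPM in sets 1 to 4, lowest in set 2, and its log2 ratio was 0.98 (0.79 to 1.17). Cox14 stood at 57.9, 29.6, 51.9 and 34.2 CPM in sets 1 to 4, again lowest in set 2, with a ratio of 0.97 (0.76 to 1.18). Cdk4 and Cmc4 were at 0.93 and 0.87. The 4 genes past 2-fold in set 2 were 1 of several genes for the small nuclear RNA 7SK, which share sequence, and 3 with locus or clone names. Of the 10 named by rule, none reached 2-fold. They included Tbcb, a tubulin-folding cofactor, at -0.74, Tubb3, a tubulin, at -0.51, and Ppidl1 and Zfp639 at -0.62 and -0.69. Polr2c, a subunit of RNA polymerase II, Rasl11b, Med28 of the mediator complex and Arpc5 of the actin-branching complex ran from -0.65 to -0.36. Apod, the lipid carrier apolipoprotein D, was at 4808, 5775, 9046 and 9744 CPM in sets 1 to 4 with a ratio of -0.26 (-0.28 to -0.25), and the factor Klf13 was at -0.27.

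Myelin genes were nearly level. All 13 were measured, none was 2-fold apart, and their median was -0.03, from the gap junction protein Gjb1 at -0.17 to Myrf, the master factor of myelination, at 0.25. Mbp, the myelin basic protein, was at 3908, 4052, 4435 and 4189 CPM in sets 1 to 4, with a log2 ratio of -0.05. Cholesterol synthesis, which myelin relies on, had a median of -0.08 over 15 genes, with the sterol oxidase Msmo1 at -0.25. Genes that vary between oligodendrocyte states had a median of -0.13 over 11. Glucocorticoid-induced genes had a median of -0.03 over 15, with Sgk1 at -0.03 and Fkbp5 at -0.04. Immediate early genes were below 0 in 13 of 14 with a median of -0.16.

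Most of the oligodendrocyte differences were in genes with a higher level in other cells. Of the 34 genes higher in set 1, 5 were at or above the level of the other cells of that set, and of the 41 higher in set 2, 4 were. Such genes were common in the other classes too. In microglia 53 of the 75 genes higher in set 1 and 17 of the 58 higher in set 2 were below that level. In endothelial cells it was 35 of 56 and 4 of 9. Smooth muscle markers summed to 188, 36.5, 84.2 and 62.6 CPM in the oligodendrocytes of sets 1 to 4, with 4 of 4 measured markers 2-fold higher in set 1 than in set 2. These UMIs came from few cells. In set 1, 10 cells held 95.5% of those of Acta2, 94.6% of Myl9, 90.3% of Tagln and 98.0% of Myh11. Microglial markers summed to 115 and 182 CPM in sets 1 and 2. Cytokines had a median of -0.90 over 7 members: Cxcl10 was at 14.0 and 36.8 CPM with a ratio of -1.40 (-1.72 to -1.08), and Il1b at 39.3 and 80.3 CPM with -1.03 (-1.23 to -0.84). Lyz2, a lysozyme of myeloid cells, and Laptm5, a lysosomal protein of blood-lineage cells, were at -1.83 and -1.20. When cells that met several class rules were kept, Cxcl10 went to -0.59, Il1b to -0.23, Lyz2 to -0.28 and Laptm5 to -0.55, which ends all 4 calls. Lyz2 and Laptm5 were at 13.8 and 11.5 CPM in the oligodendrocytes of set 2, below their level in the other cells of that set, 319 and 352 CPM. The red cell markers found in the matrix, 3 of 7, summed to 420.1 and 1353 CPM in the oligodendrocytes of sets 1 and 2. A second entry named Hba-a2, with 768 and 4165 UMIs, was not part of this sum. In set 2, 8 of 2167 cells held 76.8% of the haemoglobin UMIs of the class. In set 1, 2 of 1183 cells held 13.7%. The median haemoglobin share per cell was 0.0412% in set 1 and 0.0333% in set 2. Over all kept cells, the same 3 red cell markers were higher in set 1, at 26320 CPM against 13948 CPM. The part of free RNA or of mixed captures in these differences was not tested.

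**Figure D5:**
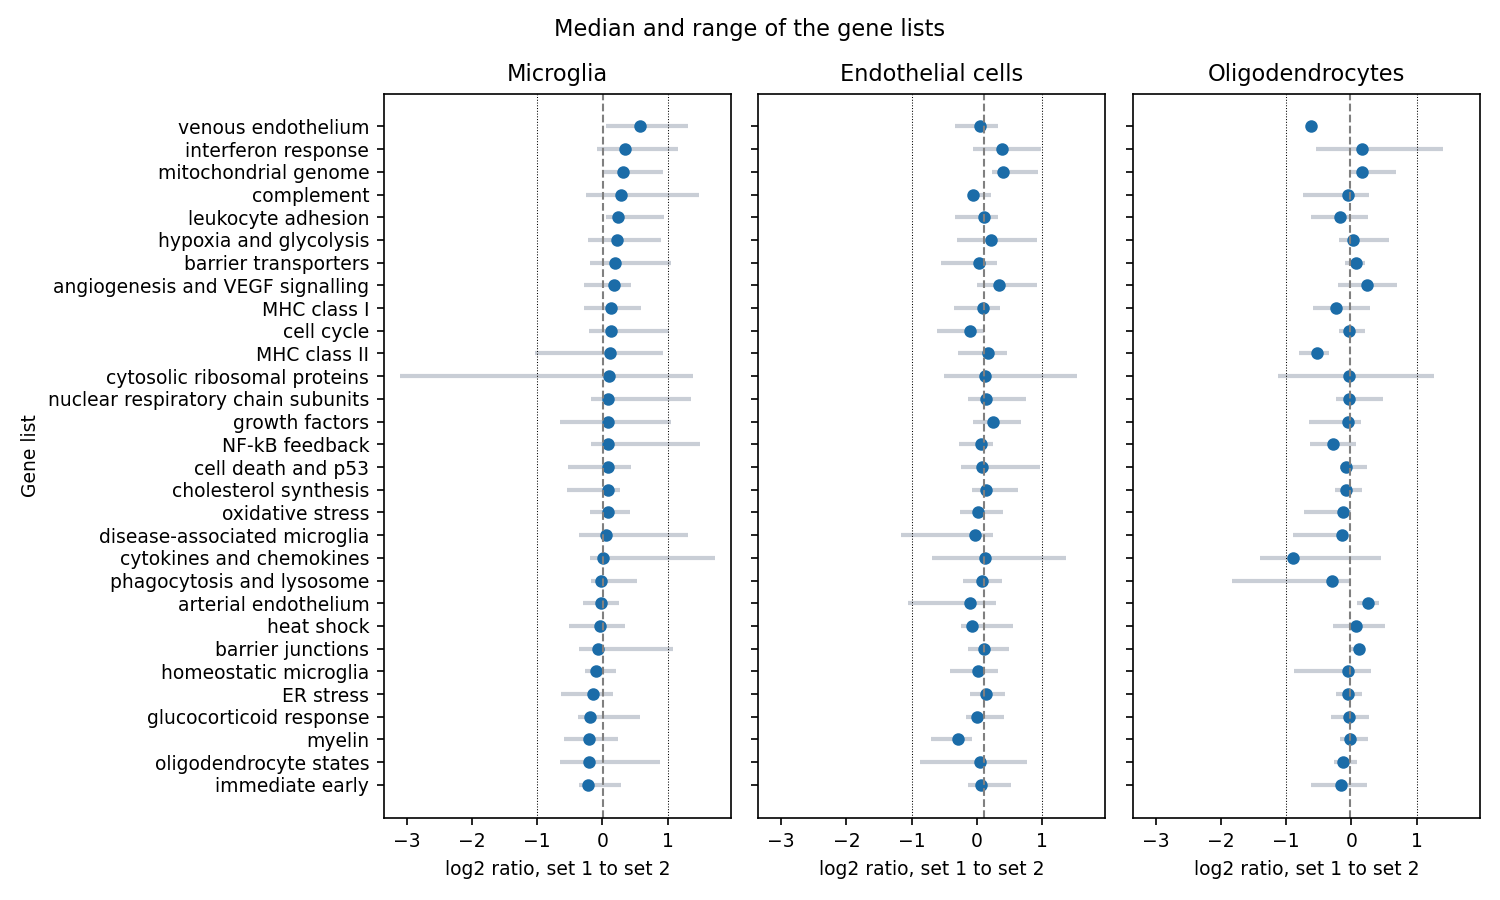
Median (point) and range (bar) of the log2 ratio of set 1 to set 2 (x axis) over the measured members of each of 30 gene lists (y axis); the dashed line is the median of all measured genes and dotted lines mark 2-fold. The interferon and mitochondrial genome medians lie to the right in microglia and endothelial cells (0.35 and 0.39 for interferon). The median farthest to the right in microglia is that of venous endothelial genes, at 0.58, and no median reaches 2-fold.

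The depth gap between sets 1 and 2 was widest in endothelial cells. All deposited barcodes of the sets held 43640627 and 46669201 UMIs. The kept cells held 42302968 and 45501155, with medians of 4959.5 and 4574.5 per kept cell. By class the medians were 4439 and 4256.5 in microglia, 6273 and 4761 in endothelial cells, and 5409 and 4959 in oligodendrocytes. The sets shared 15 barcodes, within the 9 to 27 of other pairs of sets. Scrublet, which simulates doublets, called 3.22% and 3.25% of kept cells.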

How the data were processed

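The authors deposited 1 matrix of UMI counts per gene and barcode, with no normalization, written by Cell Ranger 5.0.0 per the file headers. Per the labels' protocols, enzymes dissociated the brain tissue, red cells were removed by lysis, and a 3′ droplet kit captured the cells. Cell Ranger, STAR and the build Rnor_6.0 are named per the submitters' processing notes. How cells were called, and with which gene annotation, is not given in the sources used here. Barcodes numbered 31638 and genes 32623. With suffixes not tied to titled samples, no test was made.

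Counts were summed over the cells of a class and divided by the class total. Genes with at least 100 UMIs over both sets were measured, and 2-fold was the limit for calling a gene apart. CPM has exact Poisson intervals, shares have Clopper-Pearson intervals and ratios have exact conditional binomial intervals, all at 95%. They cover counting error only. Named genes are the 10 in each direction with the interval bound farthest from 0. Locus or clone names, and genes below the level of the other kept cells of the higher set, were passed over. Up to 3 members at each end of each list were added. Genes named outside this rule for their known role (among them Csf1r, Il1b, Ccl2, Fos, Fkbp5, Slc2a1, Abcb1a, Cdh5, Kdr, Mbp, Sgk1) or their spread (7SK, S100a9 in single cells) were chosen after their values were seen. Some genes that the rule names are not reported here, though counts and list medians include them. The comparison, classes and lists were chosen with earlier results of these data known. Of the 553 list entries 545 were in the matrix, as were 104 of 116 marker entries. Doublets were called with Scrublet and kept. The ratios and intervals were tested on simulated data with independent Poisson counts, which the intervals also assume. That test cannot show how the intervals do for genes with most UMIs in few cells. Python 3.11.15, numpy 2.4.6, scipy 1.17.1, pandas 2.3.3, scanpy 1.11.5 and edgeR 4.0.16 (for a scaling alternative) were used. Alternatives changed the cell filter, the class rules, the scaling, the depth, the minimum count, doublets and haemoglobin-rich cells.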

Additional observations from a re-analysis of the deposited data

Results flagged for a closer look

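In Cxcl10, Cxcr4, G0s2 and Ighm, set 1 and set 2 were at least 2-fold apart in opposite directions in different classes. With 1 library per set, the difference between classes was not tested. Cxcl10, the interferon-induced chemokine, had a log2 ratio of 1.36 in endothelial cells and -1.40 in oligodendrocytes, with 67.5% and 64.9% of the higher set's UMIs in 10 cells. Cxcr4, the receptor that keeps leukocytes in their niches, was at 1.32 and -1.71 in the same classes, with 50.6% and 84.4%. G0s2, an inhibitor of fat breakdown, was at 2.05 and -2.98, with 74.0% and 91.7%. Ighm, the heavy chain of IgM made by B cells, was at 2.76 in microglia, 5.97 in endothelial cells and -2.54 in oligodendrocytes, with 94.8%, 98.3% and 98.6%. When cells that met several class rules were kept, Cxcl10 went to 0.68 and -0.59, Cxcr4 to 0.99 and -0.88, and G0s2 to 0.99 and -0.56, so that these 3 were no longer 2-fold apart in either class. For Ighm the oligodendrocyte ratio went to -0.99 with the mean of per-cell CPM, under 2-fold, and over all kept cells Ighm was at 0.12. Igh-6, another immunoglobulin heavy chain entry, and Jchain went the other way in oligodendrocytes, at 1.48 and 1.32. In set 1, 10 cells held 95.5% and 97.8% of their UMIs. Of the 4 genes, Cxcr4, G0s2 and Ighm lie outside the rule for named genes and were chosen after their values were seen, as were Igh-6 and Jchain.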

How the results depend on the processing

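The share ratios of the 3 classes kept their direction under the alternatives run, and that of endothelial cells stayed between 3.23 and 3.89. With at least 50 UMIs, the counts of genes at least 2-fold higher in set 1 and in set 2 were 165 and 110 in microglia, 165 and 37 in endothelial cells, and 88 and 89 in oligodendrocytes, and with at least 200 UMIs 38 and 24, 27 and 4, and 21 and 23. Thinning each cell to 1000 UMIs, which leaves fewer genes measured, gave 19 and 8, 6 and 3, and 7 and 1. Keeping cells that met several class rules gave 225 and 88 in microglia, 22 in set 2 of endothelial cells and 167 in set 1 of oligodendrocytes. Doubled marker minimums gave 31 and 16 in endothelial cells, the mean of per-cell CPM gave 40 in set 2 there, and leaving out haemoglobin-rich cells, chosen after seeing the data, gave 33 and 15. The stricter cell filter gave 27 in set 2 of oligodendrocytes. A turn of direction was looked for in followed genes at least 2-fold apart. Directions turned for Cxcl1 (-0.40), Ccl12 (-0.39) and Ntrk2 (-0.63) in microglia with the stricter filter. Ighm in microglia turned with doubled minimums (-0.90). Ccl2 in endothelial cells turned when cells of several rules were kept (-0.36) and with the mean of per-cell CPM (-0.21). S100a9 in microglia, less than 2-fold apart, also turned, as given above. Causes beyond the number of genes or cells left were not tested. Endothelial genes with few UMIs are limited by the 386 cells of set 2. No paired analysis was possible because each set is 1 library and carries no replicate number.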
